A study of Mus musculus with 28 samples.

Results

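The epidermal differentiation complex is a cluster of genes on mouse chromosome 3 whose products build the outer shell of keratinocytes. Its members were taken by name as every Sprr, Lce and numbered S100a gene of the count table together with Crnn, Flg, Flg2, Hrnr, Ivl, Lor, Rptn, Tchh and Tchhl1. Of 63 such rows among 55011 gene symbols, 60 had at least 10 counts over the 28 libraries and were kept. The other 3, S100a11-ps, Sprr2a1 and Sprr2a2, had 1, 6 and 8 counts. The 60 members were 15 S100 genes, 15 small proline-rich (SPRR) genes, 21 late cornified envelope (LCE) genes, 7 S100-fused genes (Crnn, Flg, Flg2, Hrnr, Rptn, Tchh, Tchhl1) and the envelope precursors Ivl and Lor.

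The libraries were bulk RNA-seq of medullary thymic epithelial cells (mTECs), thymic stromal cells that transcribe genes of many peripheral tissues, from C57BL/6 mice. Wild-type thymus gave cells sorted inside an entero-hepato gate (3 libraries) and cells sorted outside that gate (3 libraries). All other mice carried 1 copy of the thymic epithelial driver Foxn1-Cre. Double mutants were Hnf4a fl/fl and Hnf4g -/-, and gave 4 libraries of the subset mTEChi and 4 of the subset mTEClo, which is labelled post-Aire. Mice called Hnf4a-removed were fl/fl for Hnf4a with Hnf4g +/-, and gave 3 mTEClo libraries. Mice called Hnf4g-removed were Hnf4g -/- with Hnf4a fl/+, and also gave 3 mTEClo libraries. Controls were fl/+ and +/- at the same loci, with 4 mTEChi and 4 mTEClo libraries. Controls thus kept 1 intact allele of each gene. Hnf4a is deleted by the driver in thymic epithelium, whereas the Hnf4g allele is written as a germline one. Whether each library had its own animal is not said in the labels, and the p-values below therefore speak of library-to-library spread, which may be technical.

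In skin, the members of the complex are switched on as keratinocytes leave the basal layer. Involucrin, loricrin, SPRR and LCE proteins are cross-linked by transglutaminases under the plasma membrane into the cornified envelope. The S100-fused proteins join an S100-type calcium-binding domain to long repeats that bundle keratin filaments, as filaggrin does, or are built into the envelope. S100 proteins are small EF-hand calcium sensors that bind targets such as annexins, and S100A8 with S100A9 forms calprotectin, an antimicrobial protein that neutrophils carry in abundance. In the thymic medulla, some post-Aire mTECs resemble keratinocytes and form the cornified Hassall's corpuscles.

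Of the 60 members, 59 were found in the GENCODE M21 annotation of GRCm38 (mm10), all on chromosome 3 between 90511034 and 93564643, a span of 3.05 Mb. S100a7l2, not in that annotation, lies at chr3:91088137-91107429 in RefSeq. S100a1 to S100a9 stand at one end, then Lor, the SPRR genes, Ivl, the LCE genes and the S100-fused genes, with S100a11 and S100a10 at the other end. S100a2 lies within the annotated span of S100a3 on the same strand without a shared exon. The SPRR2, LCE1 and LCE3 families hold near-identical copies, so reads of 38 bases could be split or lost between them and values of single family members are uncertain. The library kit did not mark strand.

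RefSeq promoters (GRCm38.p6, 250 bases before to 50 after the start) were given for 53 members, with 57 windows in all. The AP-1 motif TGANTCA, searched on both strands, was in 9 of 12 SPRR windows, 5 of 7 S100-fused windows, 2 of 2 windows of Ivl and Lor, 3 of 16 S100 windows and 0 of 20 LCE windows, against 7.81% of all 32851 promoters. The TATA letters TATAAA were in 10 of 12 SPRR windows, 4 of 20 LCE windows and 25 of the 57, against 13.6% of all promoters. The grainyhead-like motif AACCNGTT was in 3 of the 57 (Rptn, S100a3, S100a9), against 2.09%, and the HNF4 motif CAAAGTCCA in 0 of the 57, against 0.475%. A match is a description of letters and not a bound site, and the windows leave out enhancers.

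Windows of 5 members are shown because they stand for the roles the results turn on, 2 S100-fused genes, an envelope precursor, an SPRR gene and an S100 gene. They are written 5′ to 3′ along the gene's strand with TGANTCA and TATAAA in capitals. In Crnn, Rptn, Ivl and Sprr1b an AP-1 match stands upstream of a TATA match, whereas S100a8 holds the TATA match alone.
Crnn, chr3:93144539-93144838, plus strand: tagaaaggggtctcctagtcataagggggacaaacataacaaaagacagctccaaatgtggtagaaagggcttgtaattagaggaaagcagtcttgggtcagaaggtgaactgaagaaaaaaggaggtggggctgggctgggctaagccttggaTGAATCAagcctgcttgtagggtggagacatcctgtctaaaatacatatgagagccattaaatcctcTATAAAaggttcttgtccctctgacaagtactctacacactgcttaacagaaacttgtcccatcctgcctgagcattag
Rptn, chr3:93393449-93393748, plus strand: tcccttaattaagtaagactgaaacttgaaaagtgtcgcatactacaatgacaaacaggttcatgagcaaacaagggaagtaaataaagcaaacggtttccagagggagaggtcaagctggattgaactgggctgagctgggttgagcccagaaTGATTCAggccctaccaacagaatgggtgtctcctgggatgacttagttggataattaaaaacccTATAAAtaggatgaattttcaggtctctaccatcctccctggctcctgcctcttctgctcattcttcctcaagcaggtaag
Ivl, chr3:92573686-92573985, minus strand: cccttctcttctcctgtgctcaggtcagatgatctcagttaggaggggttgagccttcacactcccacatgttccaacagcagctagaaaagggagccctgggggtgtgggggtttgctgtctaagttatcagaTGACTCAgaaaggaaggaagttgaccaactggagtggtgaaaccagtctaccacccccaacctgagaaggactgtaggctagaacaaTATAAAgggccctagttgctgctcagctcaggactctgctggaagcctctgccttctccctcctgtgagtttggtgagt
Sprr1b, chr3:92438730-92439029, minus strand: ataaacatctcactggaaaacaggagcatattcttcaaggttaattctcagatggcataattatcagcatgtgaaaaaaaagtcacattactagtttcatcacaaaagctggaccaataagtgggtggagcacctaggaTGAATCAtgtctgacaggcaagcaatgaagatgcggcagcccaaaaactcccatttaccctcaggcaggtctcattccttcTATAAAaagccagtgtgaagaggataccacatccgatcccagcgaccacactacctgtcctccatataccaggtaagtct
S100a8, chr3:90668821-90669120, plus strand: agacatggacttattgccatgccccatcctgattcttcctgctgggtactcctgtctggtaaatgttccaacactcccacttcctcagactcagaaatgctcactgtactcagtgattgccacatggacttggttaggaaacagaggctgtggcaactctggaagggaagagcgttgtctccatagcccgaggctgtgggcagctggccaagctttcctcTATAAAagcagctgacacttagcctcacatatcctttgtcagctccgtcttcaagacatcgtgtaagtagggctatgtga

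Total counts were 4330120 to 8342583 per library. All 28 libraries carried the epithelial marker Epcam at 643 to 2192 CPM (counts scaled to library size with TMM factors). Hnf4g was at 5.12 to 12.8 CPM in double-mutant and 15.2 to 22.3 CPM in control mTEChi, and at 3.23 to 8.44 CPM in double-mutant and 9.09 to 15.7 CPM in control mTEClo. Hnf4a was at 1.02 to 7.34 CPM across all groups with Foxn1-Cre, and since the deleted part of either gene is not given, these levels do not check the labels. The libraries numbered 1 of Hnf4a-removed, Hnf4g-removed and control mTEClo stood apart from the others of their groups, with Aire, the regulator of tissue genes in mTECs, at 186, 168 and 206 CPM against 413 to 716 CPM. Double-mutant mTEClo had Aire at 145 to 229 CPM. Where leaving out those 3 libraries changed a call, the value without them is given.

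Transcripts of the complex were present in every group, with many of its members at a low level. On CPM per kb of exon, the scale used here to compare genes, S100a8 (546), S100a2 (363), S100a16 (346) and S100a9 (328) led in control mTEChi. In control mTEClo, S100a1 (386), Sprr1a (312), S100a11 (235) and the repeat protein gene Rptn (176) led, with S100a8 at 105. In the entero-hepato gate, Sprr1a (374), S100a11 (324), S100a1 (284) and Rptn (210.2) led. Mean levels of at least 10 CPM in any group were reached by 28 members, and the other 32 stayed below that in all 8 groups. Lor, which encodes loricrin, the main envelope protein of skin, was among the 32, at 0 to 3.18 CPM over the 28 libraries.

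**Figure D1:**
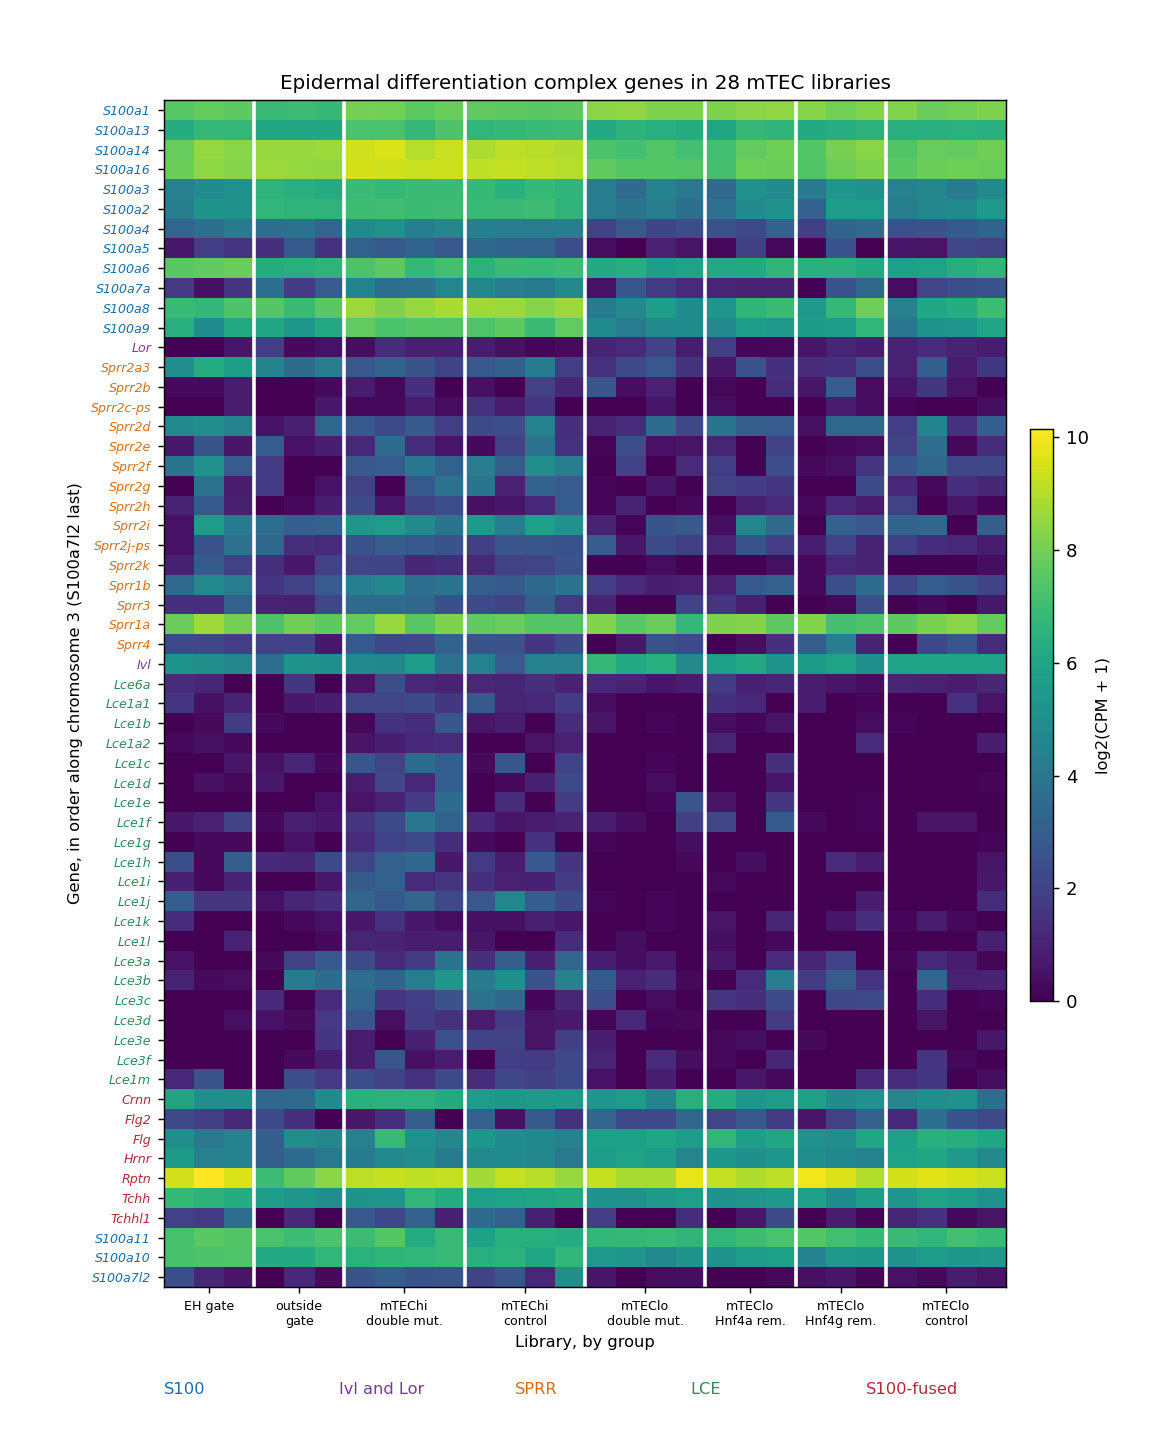
Level of each of the 60 members in each of the 28 libraries as log2(CPM + 1), with genes in their order along chromosome 3 (S100a7l2 last) and libraries by group, gene names coloured by family. S100a14, S100a16 and S100a8 are brightest in the 8 mTEChi libraries, Rptn is bright in every group, and most LCE rows are dark outside mTEChi.

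The subset comparison asked how the complex differs between mTEChi, the subset high in MHC class II and Aire, and post-Aire mTEClo. The labels do not say whether the subsets were sorted and sequenced together. A difference in processing between them therefore cannot be told apart from the subset. Within control thymus, 31 of 53 tested members were higher and 6 lower in mTEChi (edgeR quasi-likelihood test, Benjamini-Hochberg adjusted p under 0.05), where 22.4% of all genes tested were higher and 20.5% lower (42.9% called). Within double-mutant thymus, whose libraries are all different, 34 of 53 were higher and 3 lower, beside 27.7% and 23.1% of all genes (50.8% called). By family, 13 of 15 S100 genes, 10 of 16 tested LCE genes, 7 of 14 tested SPRR genes and Crnn were higher in control mTEChi. The 6 lower were Ivl, Flg, Hrnr, Rptn, S100a1 and S100a11. Fewer cells of a kind and less RNA per cell cannot be told apart in these bulk libraries.

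The median log2 fold change over the 53 tested members was 1.96 in control (0.04 over all genes tested) and 2.71 in double mutant (0.06 over all genes), unchanged with genes at 0 in a group set to their bound. Many of these genes entered the test only through mTEChi. Among the 22 members that passed the filter on low counts in both control groups, 13 were higher and 6 lower, with a median of 0.76. Among the 20 that passed in both double-mutant groups, 12 were higher and 3 lower, with a median of 0.85. Without the 3 mTEClo libraries numbered 1, of which only the control one enters here, 30 members were called in control (24 higher, 6 lower), 29 of them among the 37. The share of all genes called in that fit is not given here. The calls lost were Crnn, Lce1i, Lce3c, Lce3d, Lce3e, Sprr1b, Sprr2f and Sprr2g. Between libraries the members varied more than most genes, with a median biological coefficient of variation of 0.70 against 0.28 over all genes in this fit.

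The calprotectin genes were among the S100 genes with the widest gap between the subsets. S100a8 was at 414, 389, 319 and 395 CPM in control mTEChi, against 20.6, 66.9, 76.7 and 126 CPM in control mTEClo (edgeR log2 fold change 2.42, SE 0.37, adjusted p = 5.29e-05). In double-mutant cells it was at 397, 291, 380.3 and 458 CPM in mTEChi, against 16.6, 26.5, 50.1 and 29.8 CPM in mTEClo (edgeR log2 fold change 3.66, SE 0.40, adjusted p = 6.53e-07). Every mTEChi library lay above every mTEClo library in both genotypes, and the mTEClo libraries spread widely among themselves. S100a9, the partner of S100a8, was at 162, 196, 119 and 207 CPM in control mTEChi, against 14.8, 35.8, 39.3 and 61.8 CPM in control mTEClo (edgeR log2 fold change 2.21, SE 0.29, adjusted p = 9.27e-06), again with no overlap. Over all 28 libraries the count ratio of S100a9 to S100a8 ran from 0.272 to 1.76 with a median of 0.497.

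Since neutrophils also carry calprotectin, their other genes are given beside it. For the lists below, the shares over all genes were 22.4% higher and 20.5% lower in control mTEChi, and 27.7% and 23.1% in double-mutant mTEChi. Of 12 tested genes of a 14-gene neutrophil list, 7 were higher and 1 lower in control mTEChi, and the summed level of the list was 389.6 to 629 CPM in control mTEChi, against 267 to 545 CPM in control mTEClo. Mpo, the myeloperoxidase of neutrophil granules, was at 116 ± 24.1 CPM in control mTEChi and 7.58 ± 7.97 CPM in control mTEClo (SD, n = 4 each). Elane, a granule protease, was at 0, 9.04, 1.604 and 0 CPM in control mTEChi, against 0, 0.463, 0 and 0.144 CPM in control mTEClo. Cxcr2 was at 0, 3.798, 0 and 4.74 CPM in control mTEChi, against 0, 1.85, 1.93 and 0.864 CPM in control mTEClo, and Csf3r at 0.1801, 0.904, 4.81 and 2.15 CPM in control mTEChi, against 0.134, 0, 1.19 and 0.288 CPM in control mTEClo. Elane, Cxcr2 and Csf3r were low, uneven between libraries, and at 0 in some libraries of the groups. Ly6g was at 126 ± 13.6 CPM in control mTEChi and 33.9 ± 27.0 CPM in control mTEClo (SD, n = 4 each). Camp was at 35.5 ± 19.7 and 6.44 ± 6.61 CPM, and Ngp at 36.5 ± 19.2 and 5.17 ± 6.13 CPM, in that order. Ltf went the other way, at 102 ± 31.8 CPM in control mTEChi and 288 ± 135 CPM in control mTEClo. Ctsg was at 0 in every control mTEClo library, and no gene of the list was at 0 throughout control mTEChi. Of the lists for other cells, 12 of 14 tested macrophage and dendritic genes, 6 of 10 fibroblast genes and 7 of 9 thymocyte genes were also higher in control mTEChi, with 0, 1 and 1 lower. The summed levels in control mTEChi and control mTEClo were 1405 to 1863 against 377 to 685 CPM, 548 to 722 against 109 to 221 CPM, and 66.6 to 112 against 33.8 to 51.3 CPM in that order. In double-mutant cells 8 neutrophil genes were higher and 1 lower, with summed levels of 579 to 705 CPM in mTEChi, against 303 to 542 CPM in mTEClo. Of 6 tested endothelial genes 0 were higher and 2 lower in control mTEChi, and of 13 tested mTEC identity genes 9 were higher and 3 lower. The part of other cells in the S100 levels was not tested.

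S100a14 and S100a16, epithelial members of the family that lie side by side, were higher in mTEChi too. S100a14 was at 475, 565, 531 and 495 CPM in control mTEChi, against 166, 221, 211 and 245 CPM in control mTEClo (edgeR log2 fold change 1.33, SE 0.13, adjusted p = 4.15e-07). S100a16 was at 579.7, 590.2, 555 and 513 CPM in control mTEChi, against 187, 230.2, 238 and 233 CPM in control mTEClo (edgeR log2 fold change 1.37, SE 0.09, adjusted p = 3.16e-09). Neither overlapped between the subsets, and the count ratio of S100a16 to S100a14 stayed between 0.885 and 1.29 over all 28 libraries.

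S100a2 and S100a3, the pair whose spans overlap, were together higher in mTEChi. S100a2 was at 117, 117, 128 and 95.1 CPM in control mTEChi, against 18.3, 25.1, 26.9 and 43.5 CPM in control mTEClo (edgeR log2 fold change 2.04, SE 0.20, adjusted p = 2.86e-07). S100a3, known from the hair cuticle, was at 109, 84.8, 110.1 and 98.4 CPM in control mTEChi, against 20.2, 24.1, 16.9 and 27.95 CPM in control mTEClo (edgeR log2 fold change 2.21, SE 0.18, adjusted p = 3.18e-08). Every control mTEChi library of either gene lay well above every control mTEClo library. S100a4, a gene of motile and mesenchymal cells, was at 19.8, 18.8, 18.8 and 20.1 CPM in control mTEChi, against 4.95, 5.09, 6.38 and 8.64 CPM in control mTEClo (adjusted p = 6.34e-05 by edgeR). S100a10, the annexin A2 partner, was at 83.2, 87.5, 61.1 and 104 CPM in control mTEChi, against 35.8, 46.7, 40.1 and 42.4 CPM in control mTEClo (adjusted p = 2.91e-05 by edgeR).

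S100a7a, the mouse gene of the psoriasin family, was low but higher in mTEChi, at 25.8, 18.1, 17.8 and 27 CPM in control mTEChi, against 0.267, 3.39, 4.599 and 5.19 CPM in control mTEClo (edgeR log2 fold change 2.75, SE 0.60, adjusted p = 0.00132). S100a13 and S100a6 moved less, with log2 fold changes of 0.43 and 0.70 in control (adjusted p = 0.00673 and 0.0119 by edgeR). For S100a6 the control libraries overlapped, at 91.5, 121, 113 and 128 CPM in mTEChi, against 51.3, 56.3, 78.6 and 99.1 CPM in mTEClo. S100a5 and S100a7l2 were also called higher, at means of 7.598 and 10.2 CPM in control mTEChi and 1.82 and 0.432 CPM in control mTEClo. S100a7l2 leaned on 1 control mTEChi library at 31.1 CPM against 1.17 to 5.43 CPM in the others. None of S100a7a, S100a5 and S100a7l2 passed the filter on low counts in control mTEClo, so their direction is a description. Of 15 tested S100 genes, 12 passed it in both control groups, with 10 higher and 2 lower among them.

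Against this direction, S100a1, best known from muscle, was lower in mTEChi, at 201, 195, 184 and 195 CPM in control mTEChi, against 299, 229, 255 and 289.9 CPM in control mTEClo (edgeR log2 fold change -0.44, SE 0.11, adjusted p = 0.00421). In double-mutant cells S100a1 was at 263, 253, 192 and 225 CPM in mTEChi, against 334, 353, 294 and 288 CPM in mTEClo (edgeR log2 fold change -0.42, SE 0.11, adjusted p = 0.00465). No library overlapped in either genotype. S100a11, an envelope component of the S100 family, was lower in control mTEChi at 54.4, 85.4, 80.6 and 77.03 CPM, against 121, 103, 138 and 118 CPM in control mTEClo (edgeR log2 fold change -0.66, SE 0.20, adjusted p = 0.0116). In double-mutant cells it was at 125, 177, 74.1 and 118 CPM in mTEChi, against 104, 107, 117 and 100.1 CPM in mTEClo, with overlapping libraries and an adjusted p of 0.322 by edgeR.

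**Figure D2:**
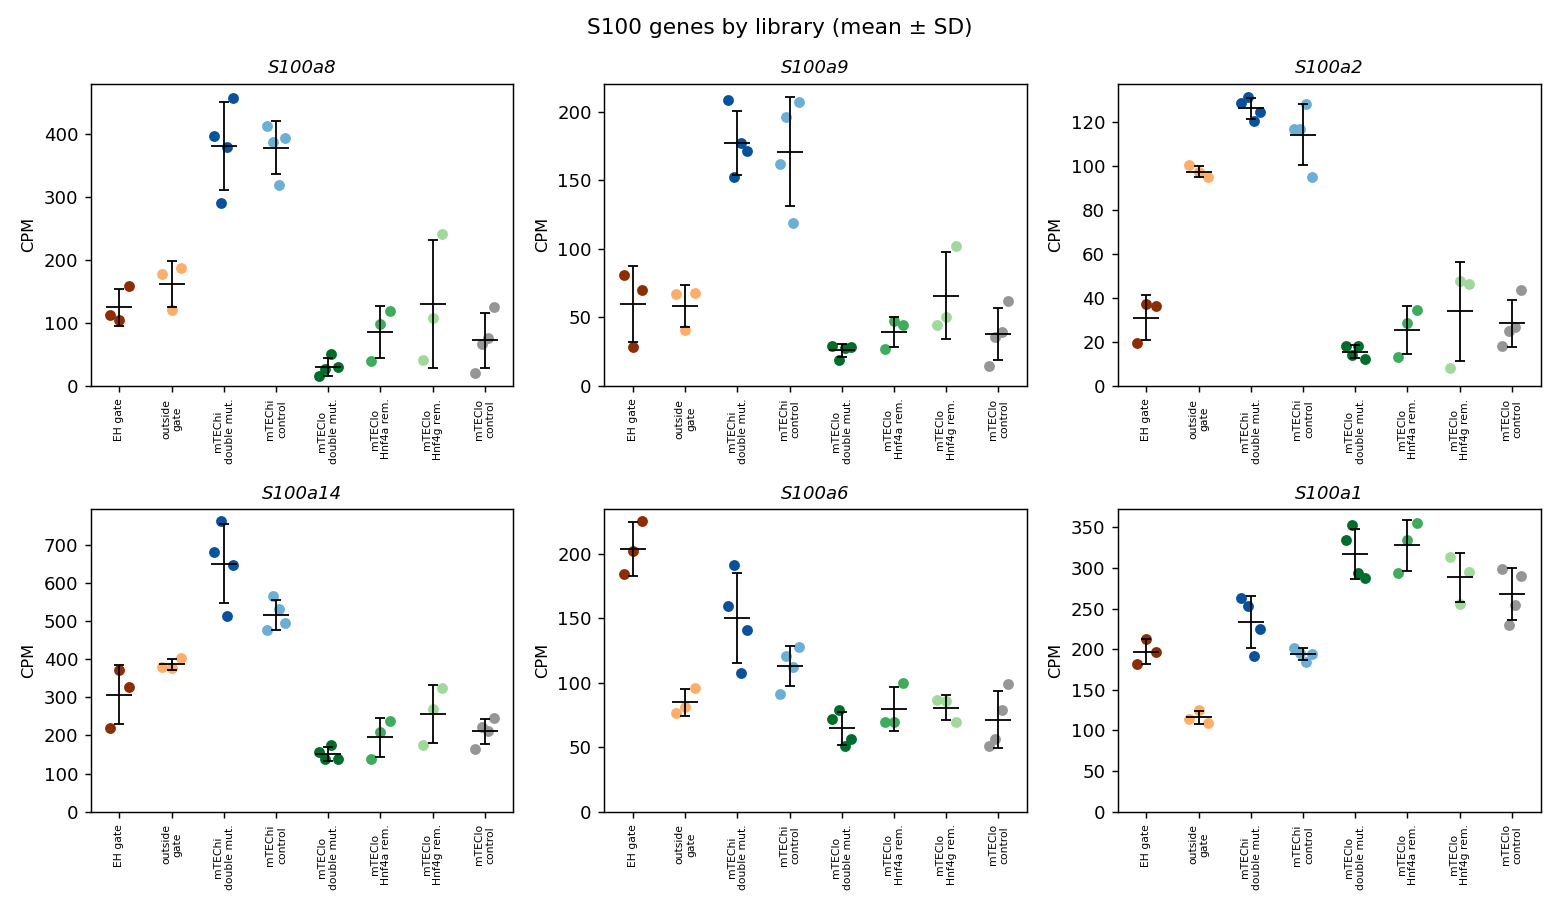
CPM of 6 S100 genes in each library by group, with the mean and SD of each group as bars. S100a8, S100a9, S100a2 and S100a14 are higher in all mTEChi than in all mTEClo libraries shown, S100a6 is highest in the entero-hepato gate, and S100a1 is highest in mTEClo.

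Late cornified envelope genes were detected more in mTEChi than in mTEClo of the same genotype. Of the 21 members, 20 to 21 had a read in each double-mutant mTEChi library and 17 to 20 in each control mTEChi library, against 6 to 13 in each double-mutant mTEClo library and 5 to 14 in each control mTEClo library. Their summed level was 88.7 ± 25 CPM in double-mutant mTEChi and 9.305 ± 5.69 CPM in double-mutant mTEClo, and 64.9 ± 26.9 CPM in control mTEChi and 8.53 ± 6.79 CPM in control mTEClo (SD, n = 4 each). Control mTEChi libraries ranged over 33.5 to 98.4 CPM and control mTEClo libraries over 2.94 to 18.2 CPM, so these groups did not overlap. Other groups did overlap control mTEChi, with sums of up to 34.4 CPM outside the entero-hepato gate and 40.4 CPM in Hnf4a-removed mTEClo. The sums were 4.98 to 34.4 CPM outside that gate and 11.1 to 20.8 CPM inside it. There, 9 to 16 and 11 to 13 of the 21 had a read in each library, in that order. Of 16 tested LCE genes, 10 were called higher and 0 lower in control mTEChi, and 12 higher and 0 lower in double-mutant mTEChi. None of these 16 passed the filter on low counts in mTEClo. In control, 7 of the 10 calls were each lost when some single library was left out, for Lce1b and Lce3e any of 6 libraries, for Lce3c and Lce3d any of 5, for Lce1i any of 4, for Lce3b any of 3 and for Lce3a 1.

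Single LCE genes rested on few reads in mTEClo. Lce3b, of the LCE3 group that human skin induces on barrier damage, was at 17.5, 32.9, 4.81 and 21.9 CPM in control mTEChi, against 0, 8.79, 0.8901 and 1.01 CPM in control mTEClo (edgeR log2 fold change 2.90, SE 0.95, adjusted p = 0.0203). The highest control mTEClo library lay above the lowest control mTEChi library. Lce1j was at 5.94, 24.2, 7.29 and 3.95 CPM in control mTEChi, against 0, 0, 0 and 1.44 CPM in control mTEClo (edgeR log2 fold change 4.80, SE 0.94, adjusted p = 0.000558), and 1 control mTEChi library carried most of it. Lce1c had 0 counts in control mTEClo and was at 0.1801, 5.61, 0 and 3.16 CPM in control mTEChi, mostly from 2 libraries. Lce1i had 0 counts in double-mutant mTEClo and was at 6.3, 7.93, 1.37 and 1.87 CPM in double-mutant mTEChi, at least 41.5-fold higher against a floor of 3 counts over the group.

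**Figure D3:**
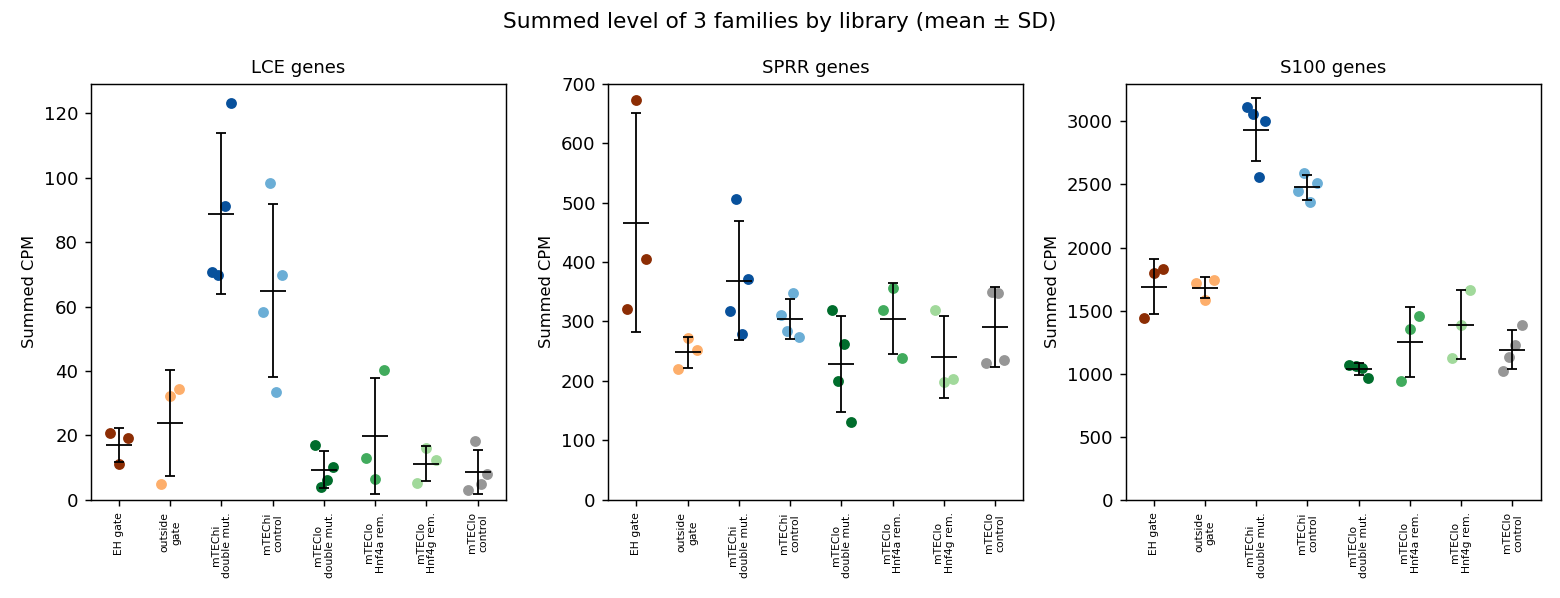
Summed CPM of the 21 LCE, 15 SPRR and 15 S100 genes in each library by group, with the mean and SD of each group as bars. The S100 sums of all mTEChi libraries lie above those of all mTEClo libraries, the LCE sums do so apart from 1 Hnf4a-removed mTEClo library at 40.4 CPM that passes the lowest control mTEChi library at 33.5 CPM, and the SPRR sums overlap between the subsets.

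The SPRR genes did not move as a block. Of 14 tested, 4 passed the filter on low counts in both control groups, with 2 of the 7 calls among them. In double-mutant cells 2 passed in both groups, with 0 of the 7 calls among them. Through mTEChi alone, 5 passed in control and 7 in double mutant, so the family's direction is a description. Sprr1a, the most abundant of them, was at 203, 218, 173 and 171 CPM in control mTEChi, against 198, 274, 327 and 207 CPM in control mTEClo, with a log2 fold change of -0.36 (SE 0.26, adjusted p = 0.283 in edgeR). Sprr1b was higher in mTEChi, at 7.02, 6.33, 9.48 and 13.6 CPM in control mTEChi, against 3.48, 6.79, 5.19 and 3.17 CPM in control mTEClo (edgeR log2 fold change 1.01, SE 0.38, adjusted p = 0.0425), with overlapping libraries. In double-mutant cells Sprr1b was at 19.7, 25.6, 11.6 and 14.6 CPM in mTEChi, against 2.58, 1.32, 0.794 and 0.888 CPM in mTEClo (edgeR log2 fold change 3.69, SE 0.43, adjusted p = 1.65e-06), with no overlap. The mTEClo values rested on 19, 9, 6 and 6 counts.

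Among the SPRR2 genes, Sprr2i was at 42.3, 18.3, 51.5 and 34 CPM in control mTEChi, against 8.29, 9.72, 0 and 7.204 CPM in control mTEClo (edgeR log2 fold change 2.56, SE 0.72, adjusted p = 0.00808). The groups did not overlap, and 1 control mTEClo library had no read of it. Sprr2f was at 18.2, 6.87, 30.3 and 18.2 CPM in control mTEChi, against 5.48, 9.41, 3.56 and 3.46 CPM in control mTEClo (adjusted p = 0.0415 by edgeR), with overlap. Sprr3, a gene of the oesophagus and other internal stratified epithelia, was at 3.78, 3.26, 7.44 and 2.26 CPM in control mTEChi, against 0, 0.154, 0 and 0.576 CPM in control mTEClo (adjusted p = 0.00343 by edgeR). Sprr2g, Sprr2k and Sprr2j-ps were also called higher, at means of 7.55, 3.15 and 4.63 CPM in control mTEChi, against 1.04, 0.07204 and 1.53 CPM in control mTEClo. The calls of Sprr1b, Sprr2f, Sprr2g and Sprr2j-ps in control were each lost without any of 5 or 6 single libraries.

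Ivl, Flg, Hrnr and Rptn ran the other way in control cells, and of these only Ivl and Hrnr were also called lower in double-mutant mTEChi. Of the 7 S100-fused genes, 3 were lower and 1 higher in control mTEChi, and 1 lower and 2 higher in double-mutant mTEChi. Ivl was at 21.1, 6.51, 21.1 and 20.4 CPM in control mTEChi, against 58.6, 57.99, 58.6 and 56.3 CPM in control mTEClo (edgeR log2 fold change -1.70, SE 0.40, adjusted p = 0.00221). The 4 control mTEClo libraries lay within 3 CPM of each other and well above every control mTEChi library. In double-mutant cells Ivl was at 27.2, 25.9, 46.3 and 13.3 CPM in mTEChi, against 106, 69.2, 80.4 and 26.6 CPM in mTEClo (edgeR log2 fold change -1.30, SE 0.38, adjusted p = 0.00923), and there the libraries overlapped.

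Flg, which encodes the filaggrin precursor, was at 38.9, 29.8, 25.4 and 21.2 CPM in control mTEChi, against 52.9, 86.4, 78.8 and 61.2 CPM in control mTEClo (edgeR log2 fold change -1.25, SE 0.40, adjusted p = 0.0172), with no overlap. In double-mutant cells Flg was at 20.3, 113, 33.9 and 25.2 CPM in mTEChi, against 53.9, 53.9, 63.6 and 47.1 CPM in mTEClo (adjusted p = 0.759 by edgeR). One mTEChi library at 113 CPM stood far above the other 3, and without it Flg was called lower there too (log2 fold change -1.02, adjusted p = 0.00137). Hrnr, the hornerin gene, was at 27.4, 28.9, 24.9 and 15.8 CPM in control mTEChi, against 58.6, 65.1, 42.7 and 26.5 CPM in control mTEClo (edgeR log2 fold change -0.96, SE 0.30, adjusted p = 0.0153), with overlap. In double-mutant cells it was at 16.6, 26.4, 30.6 and 17.5 CPM in mTEChi, against 48.7, 56.2, 48.99 and 23.8 CPM in mTEClo (edgeR log2 fold change -0.93, SE 0.30, adjusted p = 0.0148).

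Rptn, the repetin gene and the most abundant S100-fused gene, was at 423, 608, 530.4 and 384 CPM in control mTEChi, against 729, 804, 744 and 644 CPM in control mTEClo (edgeR log2 fold change -0.56, SE 0.17, adjusted p = 0.0153). The control groups did not overlap, but the difference was small. In double-mutant cells Rptn was at 561, 603, 582 and 605 CPM in mTEChi, against 615, 457, 465 and 879 CPM in mTEClo (edgeR log2 fold change -0.01, SE 0.17, adjusted p = 0.973). Crnn, which encodes cornulin of the oesophagus and upper epidermis, was the S100-fused gene higher in mTEChi of both genotypes. It was at 48.3, 40.2, 44.8 and 42.2 CPM in control mTEChi, against 23.4, 31, 33.97 and 12.5 CPM in control mTEClo (edgeR log2 fold change 0.83, SE 0.31, adjusted p = 0.0356), with no overlap, a call that leaving out any of 5 single libraries ended. In double-mutant cells it was at 86.8, 88.99, 87.7 and 73.2 CPM in mTEChi, against 37.9, 47.2, 22.6 and 83.05 CPM in mTEClo (edgeR log2 fold change 0.85, SE 0.30, adjusted p = 0.0227), with overlap, and the call was lost without double-mutant mTEClo library 1 or 3. Tchh, the trichohyalin gene of hair follicles, was called in double-mutant cells, at 37.5, 38.3, 102 and 77.3 CPM in mTEChi, against 35.3, 33.96, 43.3 and 53.1 CPM in mTEClo (edgeR log2 fold change 0.65, SE 0.27, adjusted p = 0.0488), with overlap, a call lost without any of 5 single libraries.

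**Figure D4:**
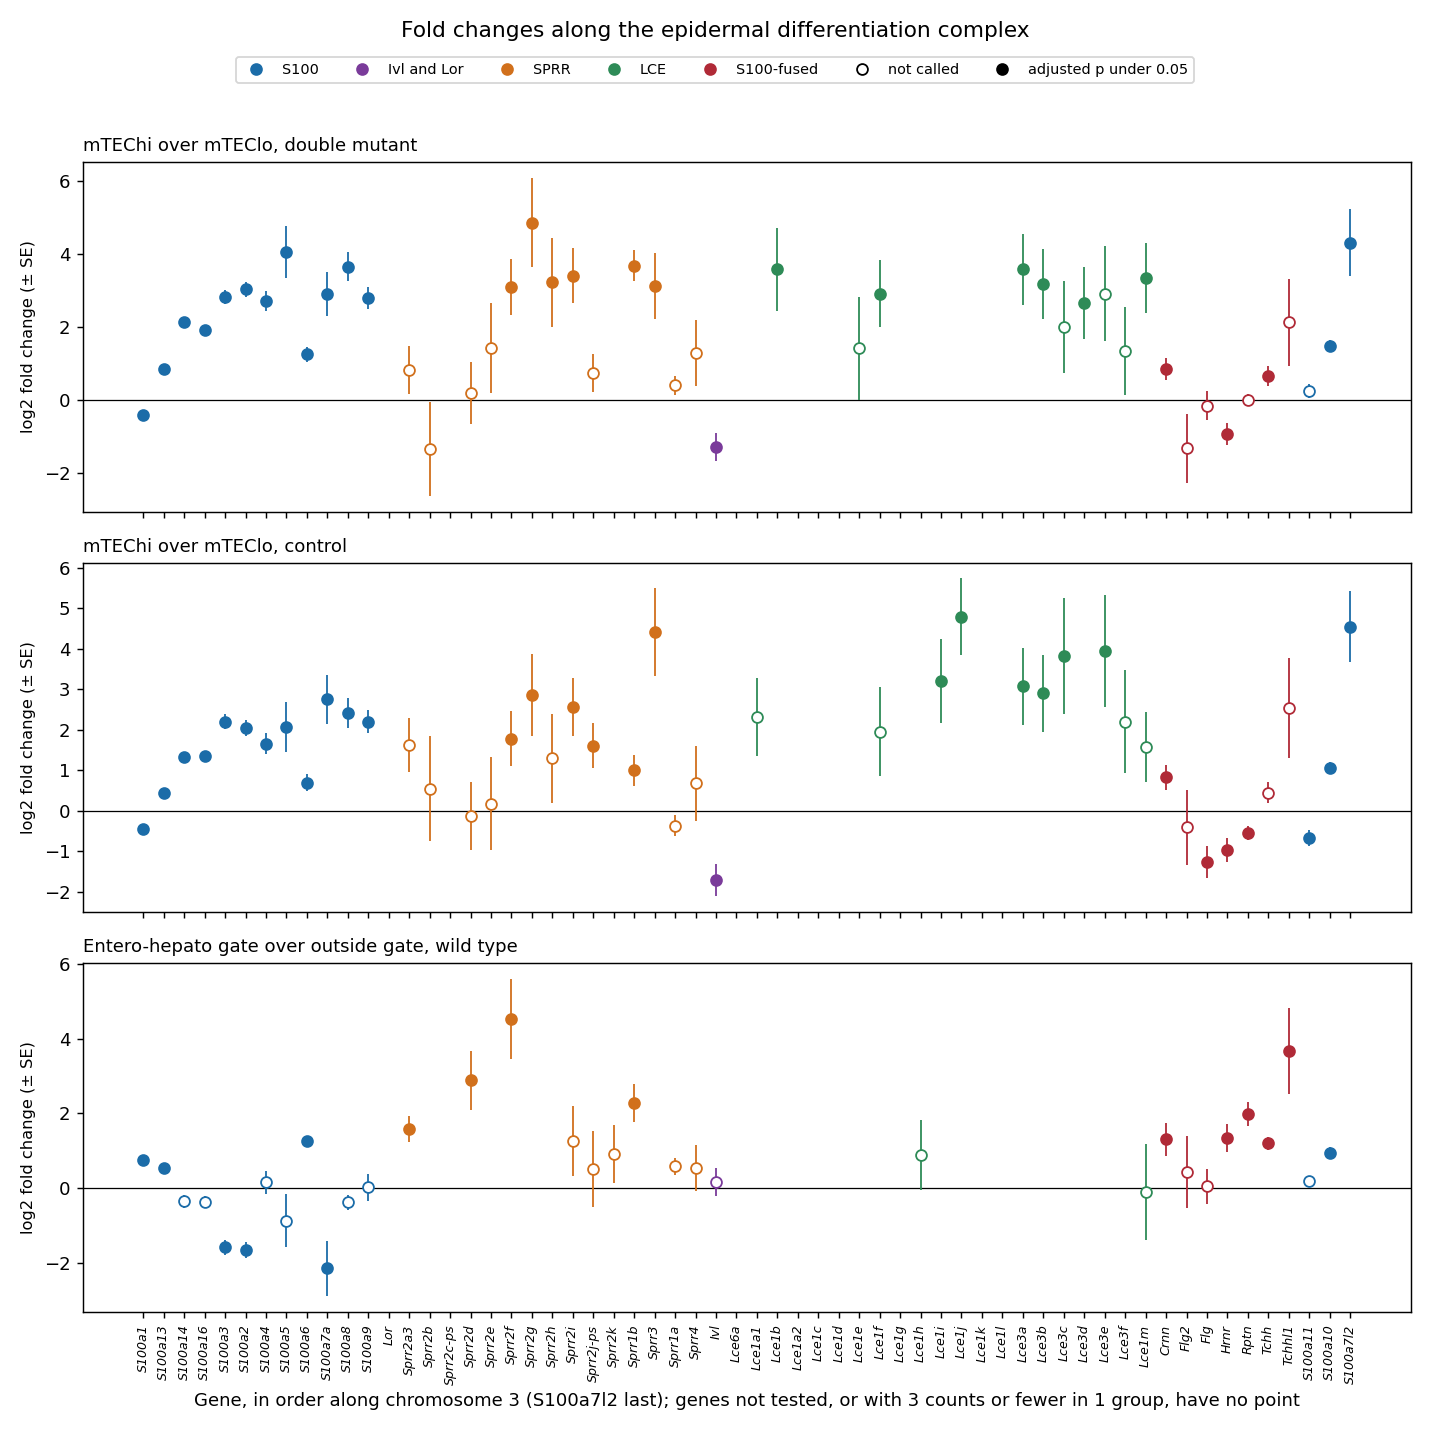
Log2 fold changes with SE of the tested members in their order along chromosome 3, for mTEChi over mTEClo in double mutant (top) and control (middle) and for the entero-hepato gate over the gate outside it (bottom). Filled points have adjusted p under 0.05, and genes with 3 counts or fewer in a group are left out. In the upper panels the S100 genes at the left end lie above 0 apart from S100a1, Ivl and Hrnr lie below 0, and in the bottom panel all S100-fused points lie at or above 0.

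Of 41 other late epidermal genes, encoded outside the complex, 8 were higher and 19 lower in control mTEChi, with a median log2 fold change of -0.68. In double-mutant mTEChi 10 were higher and 18 lower, with a median of -0.56. Of all genes, 22.4% were higher and 20.5% lower in control, and 27.7% and 23.1% in double mutant. Spink5, the skin protease inhibitor, was at 229.8 CPM in control mTEChi and 827 CPM in control mTEClo (edgeR log2 fold change -1.82, adjusted p = 1.48e-06). Krt1, the suprabasal keratin, was at 2.52 ± 1.17 CPM in control mTEChi and 19.2 ± 7.74 CPM in control mTEClo (SD, n = 4 each), with a log2 fold change of -2.89. Cstb, a protease inhibitor of the envelope, was higher at 513 CPM in control mTEChi and 256 CPM in control mTEClo. Of 20 tested regulators of the complex, 5 were higher and 4 lower, and Klf4, which drives barrier genes in skin, was at 38.5 CPM in control mTEChi and 139 CPM in control mTEClo (edgeR log2 fold change -1.82, adjusted p = 4.77e-10). Among S100 partners and S100 genes encoded elsewhere, 3 were higher and 5 lower of 13, and Anxa2, the partner of S100a10, was at 543 CPM in control mTEChi and 1688 CPM in control mTEClo.

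The wild-type gates asked which members go with the entero-hepato phenotype. Of 33 tested members, 13 rose and 3 fell inside the entero-hepato gate, beside 22.7% of all genes higher and 21.8% lower (44.5% called, edgeR). The median log2 fold change was 0.54 over the 33 and 0.54 over the 21 that passed the filter in both gates, against -0.05 over all genes tested. The S100-fused family held 5 of the 13, SPRR 4 and S100 4. Of the LCE genes 2 of 21 were tested and 0 called by edgeR, with 0 at an unadjusted p under 0.05 (51.9% of all genes). DESeq2, under its own filter, called 1 LCE gene lower, Lce3a (32.3% of all genes).

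All 7 S100-fused genes were tested and 5 were called higher in the entero-hepato gate, 4 of these among the 5 genes that passed the filter in both gates. Rptn was at 709, 1134 and 771 CPM in the gate, against 124, 202 and 329.8 CPM outside it (edgeR log2 fold change 1.98, SE 0.32, adjusted p = 0.0012). Tchh was at 109, 93.6 and 77.9 CPM in the gate, against 49.2, 39.9 and 32 CPM outside it (edgeR log2 fold change 1.20, SE 0.18, adjusted p = 0.000906). Neither gene overlapped between the gates. Hrnr was at 44.8, 20.4 and 21.5 CPM in the gate, against 7.47, 10.7 and 15.7 CPM outside it (edgeR log2 fold change 1.34, SE 0.38, adjusted p = 0.0191). Crnn was at 60.4, 30.4 and 32.2 CPM in the gate, against 9.55, 10.5 and 29.2 CPM outside it (edgeR log2 fold change 1.30, SE 0.44, adjusted p = 0.0395). These 2 calls were close to the threshold, and each was lost when any of 3 single libraries was left out. Tchhl1 was also called, at 2.92, 2.41 and 11.5 CPM in the gate, against 0, 1.26 and 0 CPM outside it, on 6 counts outside, and the call was lost without either of 2 libraries outside the gate.

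Flg did not share this difference, at 30.2, 15.2 and 21.8 CPM in the gate, against 7.47, 31.3 and 25.2 CPM outside it (edgeR log2 fold change 0.05, SE 0.46, adjusted p = 0.937). Ivl was at 35.2, 31.5 and 23.4 CPM in the gate, against 11.4, 34.6 and 32.8 CPM outside it (edgeR log2 fold change 0.17, SE 0.37, adjusted p = 0.734). For both genes the libraries of the gates overlapped.

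Of 9 tested SPRR genes 4 were called higher in the entero-hepato gate. Only 3 of the 9 passed the filter on low counts in both gates, with 2 of the calls among them, and 3 passed only through the entero-hepato gate, so the family's direction is a description. Sprr2a3 was at 30.8, 77.9 and 49.7 CPM in the gate, against 22.4, 11.1 and 18.7 CPM outside it (edgeR log2 fold change 1.59, SE 0.35, adjusted p = 0.00626). Sprr2d was at 28.3, 31.3 and 22.2 CPM in the gate, against 0.415, 0.8398 and 9.66 CPM outside it (edgeR log2 fold change 2.88, SE 0.79, adjusted p = 0.0165). SPRR2 proteins are known from the stressed gut and uterus of mice as well as from skin. Sprr2f was at 14.4, 33.9 and 6.54 CPM in the gate, against 2.28, 0 and 0 CPM outside it (adjusted p = 0.00835 by edgeR). Sprr1b was at 10, 28 and 18.6 CPM in the gate, against 2.08, 2.94 and 6.44 CPM outside it (edgeR log2 fold change 2.28, SE 0.51, adjusted p = 0.00618). No library overlapped for any of these 4. Sprr1a was at 228, 415 and 260.3 CPM in the gate, against 156, 243 and 198 CPM outside it (adjusted p = 0.0763 by edgeR), with overlap.

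The S100 genes split in the entero-hepato gate. S100a6, a partner of several annexins, was at 184, 202 and 226 CPM in the gate, against 76.4, 81.7 and 96.4 CPM outside it (edgeR log2 fold change 1.25, SE 0.12, adjusted p = 6.59e-05). S100a10 was at 147, 156 and 165 CPM in the gate, against 68.5, 70.8 and 102 CPM outside it (edgeR log2 fold change 0.94, SE 0.15, adjusted p = 0.00108). S100a1 was at 182, 213 and 197 CPM in the gate, against 114, 125 and 109 CPM outside it (edgeR log2 fold change 0.75, SE 0.11, adjusted p = 0.000521). These 3 and S100a13 were higher, with no overlap between the gates.

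S100a2 and S100a3 were lower in the entero-hepato gate. S100a2 was at 19.4, 37.5 and 36.5 CPM in the gate, against 100.2, 97.2 and 94.98 CPM outside it (edgeR log2 fold change -1.66, SE 0.22, adjusted p = 0.000386). S100a3 was at 20.2, 29.9 and 34.1 CPM in the gate, against 94.8, 80.4 and 75.5 CPM outside it (edgeR log2 fold change -1.58, SE 0.19, adjusted p = 0.00025). The gates lay far apart for both genes. S100a7a was the other lower gene, at 2.29, 0.371 and 2.06 CPM in the gate, against 12.04, 2.52 and 6.44 CPM outside it (adjusted p = 0.0427 by edgeR), a call lost without any of 5 single libraries. It passed the filter on low counts only outside the gate, so its direction is a description. S100a8 was at 113, 104 and 159 CPM in the gate, against 178, 121 and 187 CPM outside it (edgeR log2 fold change -0.38, SE 0.20, adjusted p = 0.15), with overlap, while 2 of 8 tested neutrophil genes were higher and 1 lower.

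The gates differed in mTEC state as well. Aire was at 647, 922 and 1066 CPM in the gate, against 1582, 1659 and 1670.0 CPM outside it, and Krt5, the basal keratin, was at 112 ± 24.1 CPM in the gate and 1380.1 ± 163 CPM outside it (SD, n = 3 each). Whether these differences bear on the members was not tested. Of 39 tested late epidermal genes outside the complex, 10 rose and 1 fell inside the gate, beside 22.7% of all genes higher and 21.8% lower (44.5% called, edgeR). Asprv1, the protease that processes filaggrin in skin, was at 1092 CPM in the gate and 147 CPM outside it (edgeR log2 fold change 2.88, adjusted p = 5.56e-06), and Cst6, a transglutaminase-linked cystatin, was at 302 CPM in the gate and 66.4 CPM outside it. Among 20 tested regulators 6 were higher and 2 lower. The counts of higher genes do not show a rise particular to either list. The vitamin D receptor gene Vdr was at 515 CPM in the gate and 123 CPM outside it, the barrier regulators Grhl3 and Zfp750 had log2 fold changes of 1.26 and 1.13, and Trp63, the p63 gene of basal epithelium, one of -0.94. Other cells' genes were also uneven, with 5 of 13 tested macrophage and dendritic genes higher (summed level 882 to 1267 CPM in the gate, against 365 to 509 CPM outside it) and 4 higher and 1 lower of 7 tested endothelial genes, and their part was not tested.

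In mTEChi lacking both Hnf4 genes, Crnn was the only member of the complex that differed by the test. It was at 86.8, 88.99, 87.7 and 73.2 CPM in double-mutant mTEChi, against 48.3, 40.2, 44.8 and 42.2 CPM in control mTEChi. Every double-mutant library lay well above every control library, and the means were 84.2 ± 7.39 and 43.9 ± 3.49 CPM (SD, n = 4 each). The log2 fold change was 0.94 with an SE of 0.12 and an edgeR adjusted p of 0.0028. Of 51 tested members, 1 was higher and 0 lower, beside 0.038% of all genes higher (7 of 18413) and 0.597% lower (0.635% called). At an unadjusted p under 0.05 there were 15 members (11.2% of all genes), and DESeq2 called 2, Crnn and Lce1f (2.18% of all genes). Crnn was called under each alternative run for this comparison, among them leaving out any 1 library.

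Other members in double-mutant mTEChi did not pass the test. Lce1f was at 1.84, 3.797, 14.8 and 8.48 CPM in double-mutant mTEChi, against 1.26, 0.543, 0.729 and 1.02 CPM in control mTEChi (edgeR log2 fold change 3.00, SE 0.64, adjusted p = 0.0662). The groups did not overlap, but the double-mutant libraries differed widely among themselves. Without double-mutant library 1 edgeR called 2 members, Crnn and Lce1f, and without double-mutant library 3 it called Crnn and S100a11. What share of all genes was called in either fit is not given here. S100a16 was at 727, 687, 624 and 663 CPM in double-mutant mTEChi, against 579.7, 590.2, 555 and 513 CPM in control mTEChi (edgeR log2 fold change 0.27, SE 0.09, adjusted p = 0.271), without overlap. S100a11 had a log2 fold change of 0.73 (SE 0.23, adjusted p = 0.23 in edgeR), and Rptn one of 0.28 (SE 0.13, adjusted p = 0.475). Over the 51 tested members the median log2 fold change was 0.23, against 0.01 over all genes. None of 41 late epidermal genes outside the complex and none of 20 regulators were called by edgeR (0.635% of all genes). At an unadjusted p under 0.05 there were 13 and 2 (11.2% of all genes).

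In mTEClo no member was called in any mutant by edgeR. In double-mutant mTEClo 0 of 37 tested members passed, beside 0.16% of all genes higher and 0.581% lower (0.74% called). Unadjusted p was under 0.05 for 5 members (12.3% of all genes), and DESeq2 called 0 (2.31% of all genes). In Hnf4a-removed mTEClo 0 of 37 passed, beside 0.00533% of all genes, with 3 members unadjusted (6.02% of all genes) and 0 by DESeq2 (0.0286%). In Hnf4g-removed mTEClo 0 of 37 passed, beside 0.0959% of all genes, with 4 members unadjusted (8.19% of all genes) and 0 by DESeq2 (0.76%). Library spread was wide there, with a median coefficient of variation of 0.51 over the members against 0.25 over all genes.

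Crnn in mTEClo was at 37.9, 47.2, 22.6 and 83.05 CPM in double-mutant, 75.7, 40.4 and 47.9 CPM in Hnf4a-removed and 51.8, 29.3 and 33.7 CPM in Hnf4g-removed cells, against 23.4, 31, 33.97 and 12.5 CPM in control cells. The double-mutant libraries spread widely and overlapped the control, whereas the 3 Hnf4a-removed libraries lay above all 4 control libraries. The log2 fold change was 0.92 (SE 0.36, adjusted p = 0.297) in double-mutant, 1.11 (SE 0.38, adjusted p = 0.768) in Hnf4a-removed and 0.60 (SE 0.39, adjusted p = 0.756) in Hnf4g-removed cells by edgeR. These 3 comparisons share the same control libraries. Over all 8 groups, mean Crnn ran from 84.2 CPM in double-mutant mTEChi through 54.7 in Hnf4a-removed mTEClo, 47.7 in double-mutant mTEClo, 43.9 in control mTEChi, 41 in the entero-hepato gate, 38.3 in Hnf4g-removed mTEClo and 25.2 in control mTEClo to 16.4 outside the gate.

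**Figure D5:**
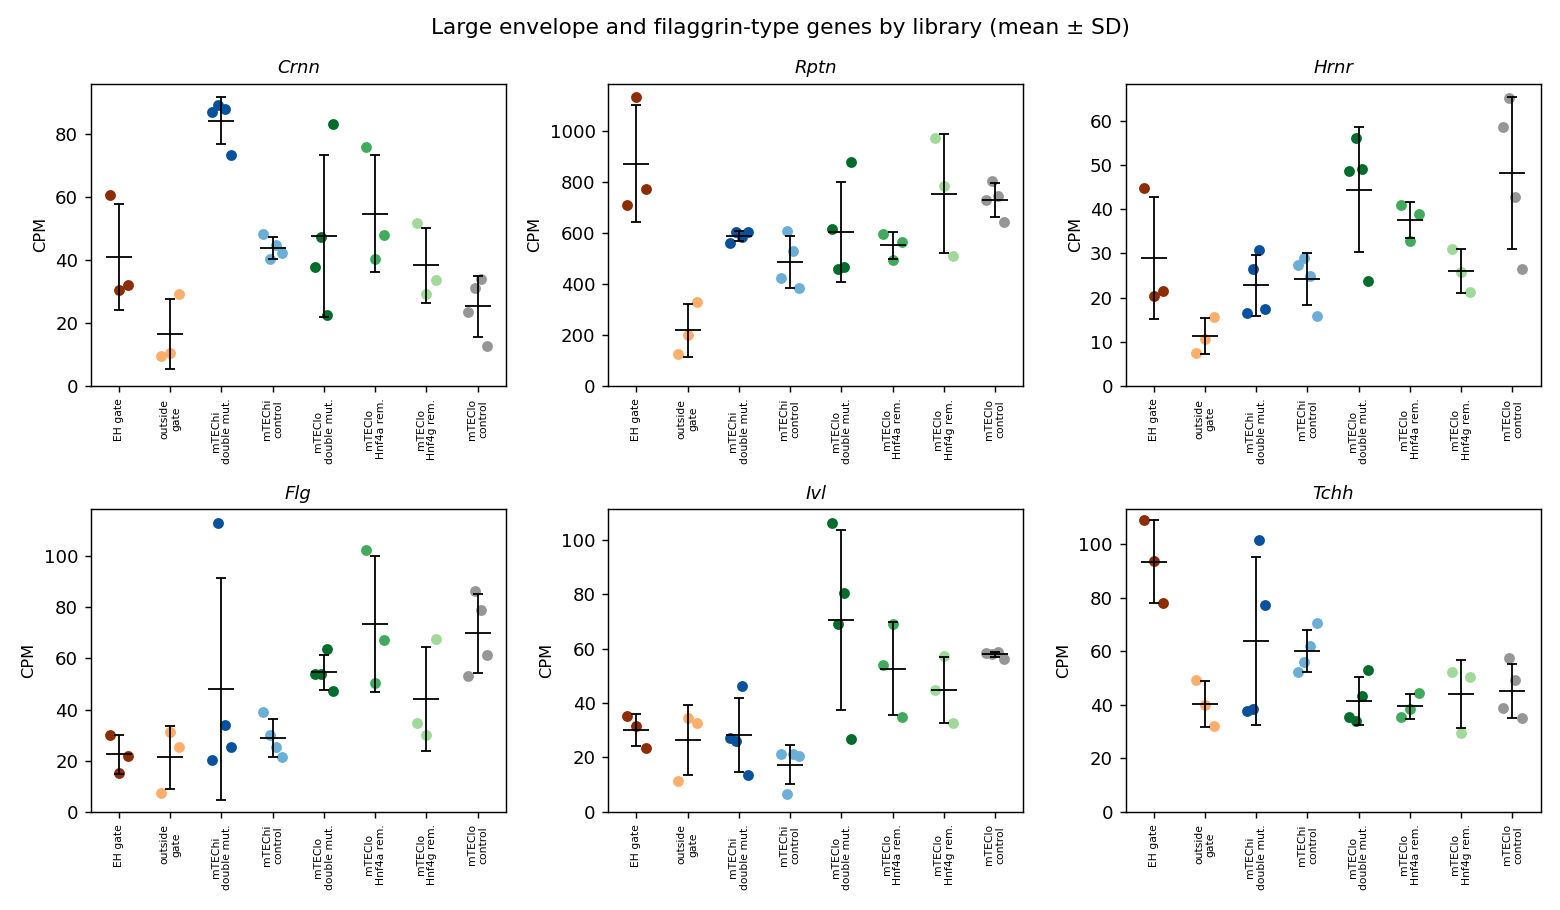
CPM of 5 S100-fused genes and Ivl in each library by group, with the mean and SD of each group as bars. Crnn of the 4 double-mutant mTEChi libraries stands apart from the 4 control mTEChi libraries, Rptn and Tchh are higher inside the entero-hepato gate than outside, and Ivl is lowest in control mTEChi.

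Several S100 genes were lower on average in double-mutant mTEClo without passing the test. S100a8 was at 16.6, 26.5, 50.1 and 29.8 CPM in double-mutant mTEClo, against 20.6, 66.9, 76.7 and 126 CPM in control mTEClo (edgeR log2 fold change -1.24, SE 0.54, adjusted p = 0.359). S100a14 was at 156, 137, 174 and 138 CPM in double-mutant mTEClo, against 166, 221, 211 and 245 CPM in control mTEClo (edgeR log2 fold change -0.48, SE 0.19, adjusted p = 0.29). In both genes the control library numbered 1 lay within the double-mutant range, and the other 3 control libraries lay above it. Without the 3 libraries numbered 1 that stand apart, 4 members were called lower, S100a8 (log2 fold change -1.55, adjusted p = 0.0262), S100a14 (-0.58, 0.0132), S100a2 (-1.03, 0.0210) and S100a16 (-0.37, 0.0448), by edgeR. That alternative was chosen after seeing the data, and its share of all genes called is not given here. Aire of the libraries moves the same way, at 181, 145, 229 and 213 CPM in double-mutant mTEClo, against 206, 413, 438 and 554 CPM in control mTEClo. Its part in the S100 levels was not tested. Genes of other cells also leaned lower in double-mutant mTEClo with 0 called by edgeR. The median log2 fold change was -0.81 over 9 tested neutrophil genes (2 at an unadjusted p under 0.05), -0.73 over 12 macrophage and dendritic genes (5 unadjusted), -0.48 over 9 fibroblast genes (4 unadjusted) and -0.51 over 13 mTEC identity genes (8 unadjusted). Summed levels in double-mutant mTEClo and control mTEClo were 303 to 542 against 267 to 545 CPM for the neutrophil list, 205 to 529 against 377 to 685 CPM for the macrophage and dendritic list, and 70.8 to 108.6 against 108.97 to 221 CPM for the fibroblast list, the last narrowly without overlap. Their part was not tested. S100a1 was the 1 of 14 tested S100 genes with a positive fold change (edgeR log2 fold change 0.24, SE 0.11, adjusted p = 0.371).

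The sizes of the double-mutant effect in mTEChi and in mTEClo were compared as a difference of differences. Of 53 tested members 0 passed by edgeR, beside 0.0398% of all genes higher and 0.0199% lower (0.0597% called). Unadjusted p was under 0.05 for 12 members (11.4% of all genes), and DESeq2 called 4 (1.68% of all genes). For Crnn the difference was 0.02 (log2, SE 0.43, adjusted p = 0.992). The largest of the 4 that DESeq2 called was Sprr1b, with a difference of 2.68 (SE 0.56, adjusted p = 0.0883 in edgeR). Its log2 fold change was 0.96 in mTEChi (adjusted p = 0.272) and -1.72 in mTEClo (adjusted p = 0.389). The other 3 were S100a14, S100a16 and S100a2, with differences of 0.81, 0.56 and 1.00 (adjusted p = 0.0939, 0.0948 and 0.154 by edgeR). Of the 3 libraries that stand apart, only control mTEClo library 1 enters this fit, and without it edgeR called the same 4. Without double-mutant mTEChi library 3 it also called 4, S100a11, S100a14, S100a16 and Sprr1b. Shares of all genes called in these fits with a library left out are not given here.

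After Hnf4g removal the S100-fused genes with an unadjusted p under 0.05 were Hrnr and Flg, and after Hnf4a removal Crnn, described above. Hrnr in Hnf4g-removed mTEClo was at 31.1, 25.7 and 21.2 CPM, against 58.6, 65.1, 42.7 and 26.5 CPM in control mTEClo (edgeR log2 fold change -0.89, SE 0.30, adjusted p = 0.387). The highest Hnf4g-removed library overlapped the lowest control library. Flg in Hnf4g-removed mTEClo was at 34.6, 30.1 and 67.5 CPM, against 52.9, 86.4, 78.8 and 61.2 CPM in control mTEClo (adjusted p = 0.567 by edgeR). Ivl was at 54.1, 68.99 and 34.8 CPM in Hnf4a-removed, 44.7, 57.1 and 32.6 CPM in Hnf4g-removed and 58.6, 57.99, 58.6 and 56.3 CPM in control mTEClo, with adjusted p of 0.976 and 0.852 by edgeR.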

How the data were processed

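RNA-seq counts per gene were made by the authors from libraries of 1000 sorted cells amplified over 18 PCR cycles and read as pairs of 38 bases, per the labels' protocols. STAR 2.7.3a, featureCounts and mm10 are named in the submitters' processing notes, whereas the settings used for counting were not given in them. The deposited counts carry no molecular identifiers and were used as they are, with every column mapped to a labelled sample. Levels are CPM on TMM-scaled libraries. Tests were edgeR 4.0.16 quasi-likelihood fits in R 4.3.3 with filterByExpr (minimum count 10, total 15) and Benjamini-Hochberg adjustment over all genes tested, called at an adjusted p under 0.05. The gates, mTEClo groups and mTEChi groups were fitted separately, and 16 double-mutant and control libraries together for the subsets. The fits were also run on simulated counts with the same spread for every gene, narrower than that of the members. Those runs do not show how the fits perform on the members. DESeq2 1.42.0, RLE scaling, no filter, a replicate block, fits on 2 groups and leaving out libraries were alternatives. Members named with values per library reached 10 CPM on average in some group or were called in a comparison. The members and the 9 lists of other genes were chosen with earlier results of these data known.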

Additional observations from a re-analysis of the deposited data

Results flagged for a closer look

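In groups of 4 libraries, the gap between the highest or lowest library and its nearest neighbour, divided by the range of the group, was set against Dixon's critical value for groups of that size. Of 84 such tests on members, 9 passed, where chance flags about 1 in 20.

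Among the S100 genes, S100a16 of double-mutant mTEClo library 1 stood high at 202 CPM against 172 to 175 CPM in the other 3 (gap 0.889 of the range). S100a16 of control mTEClo library 1, a library that also holds the least Aire of its group, stood low at 187 CPM against 230.2 to 238 CPM (gap 0.849). S100a9 of double-mutant mTEClo library 2 was low at 18.7 CPM against 27.9 to 29.2 CPM (gap 0.883). S100a3 of double-mutant mTEChi library 2 was low at 108 CPM against 119 to 120.4 CPM (gap 0.865). S100a7l2 of control mTEChi library 4 was high at 31.1 CPM against 1.17 to 5.43 CPM (gap 0.858).

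Crnn of double-mutant mTEChi library 4 was the lowest of its group at 73.2 CPM against 86.8 to 89.0 CPM (gap 0.862). Flg of double-mutant mTEChi library 2 was high at 113 CPM against 20.3 to 33.9 CPM (gap 0.853). In control mTEChi library 2, Ivl was low at 6.51 CPM against 20.4 to 21.1 CPM (gap 0.952), and Lce1j was high at 24.2 CPM against 3.95 to 7.29 CPM (gap 0.835).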

How the results depend on the processing

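Alternatives were run on the counts of members called and on each called fold change, and none of these fold changes turned its direction. Called under every alternative that tested them were Crnn in double-mutant mTEChi, 11 of 16 members in the entero-hepato gate, and 22 of 37 in control and 31 of 37 in double mutant between the subsets. The fit on 2 groups tested only 27 of the 37 in control and 29 of the 37 in double mutant. With DESeq2 the count of members called was 2 in double-mutant mTEChi and 4 for the difference between subsets. With no filter on low counts it was 4 in double-mutant mTEChi, 26 in the entero-hepato gate, 6 in double-mutant, 2 in Hnf4a-removed and 5 in Hnf4g-removed mTEClo, and 5 for the difference between subsets. For this setting and those that follow, the share of all genes called is not given. These counts therefore do not show a change particular to the members. Without the 3 mTEClo libraries numbered 1, an alternative chosen after seeing the data, it was 4 in double-mutant mTEClo and 4 for the difference between subsets. For the latter only the control library enters, so it is the same fit as leaving out that library alone. The cause was not tested. Leaving out 1 library at a time gave 1 to 2 in double-mutant mTEChi, 14 to 16 in the entero-hepato gate, 29 to 34 in control and 34 to 39 in double mutant between the subsets, 0 to 4 for the difference between subsets, and 0 in each mutant mTEClo. In no comparison made here did every same-numbered pair correlate over 0.1 in its deviations (range -0.06 to 0.30), so the numbers were not taken to pair the samples. Between Hnf4g-removed and Hnf4a-removed mTEClo, which were not compared, the 3 pairs were at 0.31, 0.107 and 0.159. With the replicate block the count was 1 in double-mutant mTEClo (S100a8, adjusted p = 0.0493) and 1 in Hnf4g-removed mTEClo (Hrnr, adjusted p = 0.0238) by edgeR, and the other counts stayed within 1.5 times. Libraries of 1 group differed by more than sampling noise, with chi-square per degree of freedom of 5.93 to 24.2 over 36 pairs. Low LCE and SPRR2 counts limit single-gene values.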
